A study of Mus musculus with 9 samples.

Results

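The dual-specificity MAP kinase phosphatases are described here through 10 genes, Dusp1, Dusp2, Dusp4, Dusp5, Dusp6, Dusp7, Dusp8, Dusp10, Dusp14 and Dusp16, of 19938 genes tested. Each was found as a probe set whose platform annotation gives that symbol alone, and all 10 were measured. Dusp8 had 2 such probe sets, of which the one with the higher mean over the 9 arrays was kept, and each of the others had 1. RNA came from whole ear skin of female C57BL/6 mice aged 7 to 9 weeks, in 3 groups of 3 arrays on Affymetrix Mouse Gene 1.0 ST chips. In the anisomycin group both sides of the ear had received 10 µl per side of anisomycin at 2 mg/ml in 99.5% ethanol once a day for 5 days. In the imiquimod group 10 mg of a 5% imiquimod cream had been put on both sides of the ear once a day for 5 days. The third group is labelled vehicle, and its labels name neither the vehicle nor the number of days, so ethanol and cream base cannot be told apart from the agents.

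MAP kinases are switched on by phosphorylation of a threonine and a tyrosine in their activation loop, and dual-specificity phosphatases remove both phosphates. Many of these phosphatases are themselves transcribed in response to the kinases that they switch off, which makes them feedback inhibitors. They differ in where they act and on which kinase: Dusp1, Dusp2, Dusp4 and Dusp5 encode nuclear enzymes that are induced by stimulation, Dusp6 and Dusp7 encode cytoplasmic enzymes selective for ERK, and Dusp8, Dusp10 and Dusp16 encode enzymes that prefer JNK and p38. Dusp14 encodes a small atypical member without the kinase-binding amino-terminal domain of the others. Anisomycin blocks protein synthesis on ribosomes and activates p38 and JNK, and imiquimod is a ligand of Toll-like receptor 7.

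Nearly the whole group was higher after anisomycin, and a smaller and less uniform set after imiquimod. Of the 10 genes, 9 rose in anisomycin ears relative to vehicle ears and 0 fell, where 22.3% of all genes rose, 23.3% fell and 45.6% were called in either direction. The median log2 fold change of the 10 was 1.21, and that of all genes was -0.01. In imiquimod ears 6 rose and 1 fell relative to vehicle, where 20.4% of all genes rose, 22.4% fell and 42.7% were called either way, and the median was 0.71, with -0.03 over all genes. Set directly against imiquimod, anisomycin ears had higher levels of 5 of the 10 genes and lower levels of 0, where 10.8% of all genes were higher, 9.59% lower and 20.4% either. With array weights 9 of the 10 genes were higher in that comparison, and 4536 of all genes in place of 2147. Rose, fell, higher and lower here mean limma's Benjamini-Hochberg adjusted p under 0.05 over all 19938 genes, with n = 3 arrays per group. The comparisons with vehicle share the vehicle arrays, so they are not independent of each other. The 10 genes were chosen with earlier results of these data known, so setting their counts beside those of all genes is no test.

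**Figure D1:**
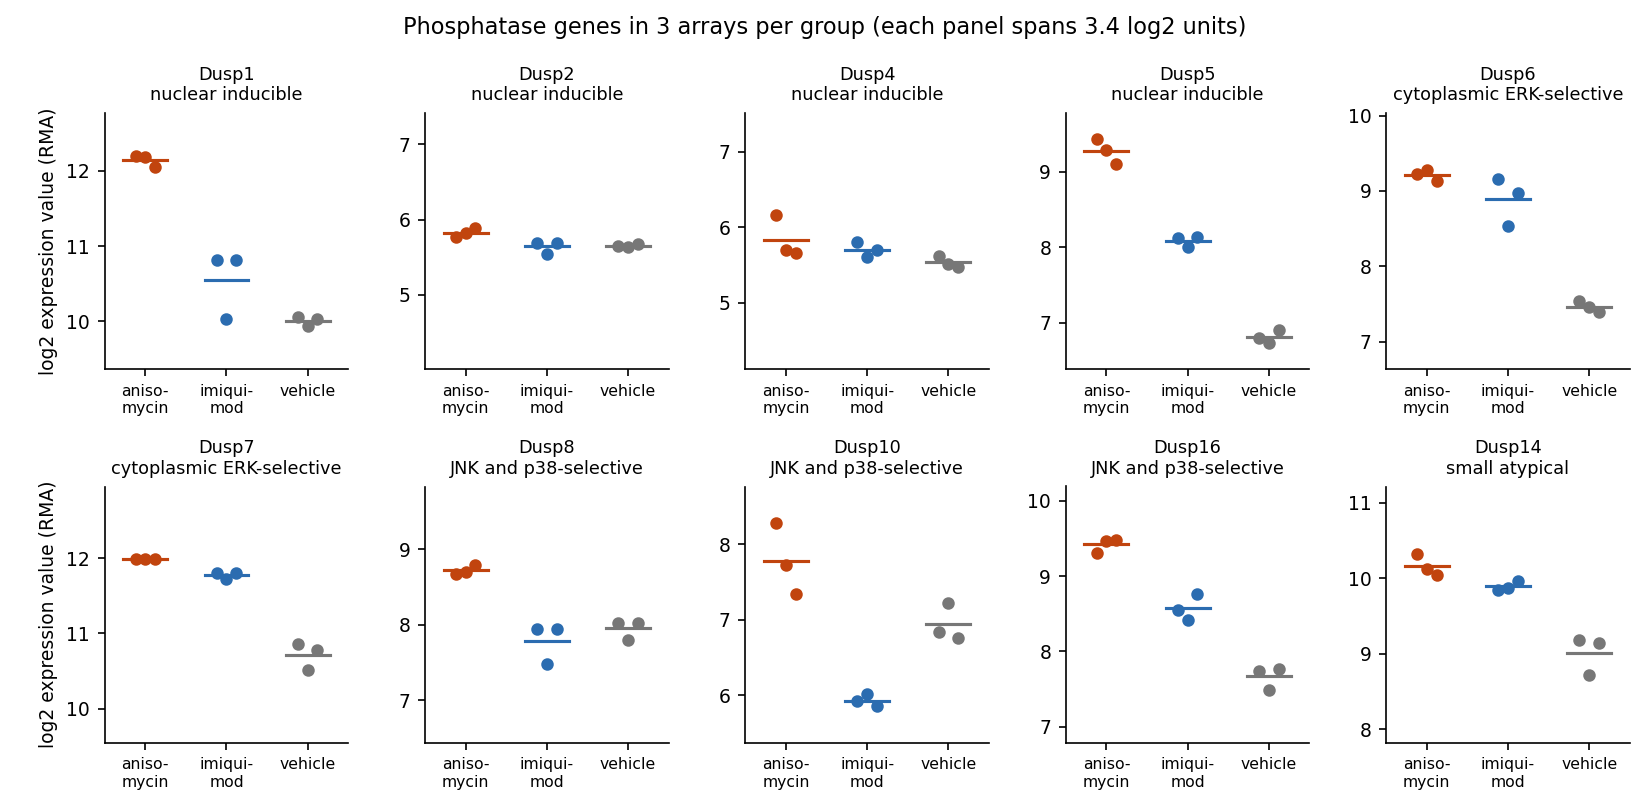
Log2 expression values of the 10 phosphatase genes in the 9 arrays, with a panel for each gene and points for single arrays of the anisomycin, imiquimod and vehicle groups. Horizontal bars are means of 3 arrays, and each panel spans the same height on the log2 scale but starts at its own level. Dusp5 and Dusp16 form 3 separate steps, Dusp10 lies lowest in the imiquimod arrays, and Dusp2 and Dusp4 are nearly level.

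Between arrays of a group the values of all genes correlated at 0.993 or more, and array medians ran from 6.01 to 6.10. Markers of keratinocytes, the main cells of the epidermis, were strong in all groups: Krt5 averaged 12.76, 12.86 and 12.62 and Krt14 12.96, 12.83 and 12.16 in anisomycin, imiquimod and vehicle ears. Of the 7 basal and suprabasal keratinocyte markers, which include these, 2 rose and 3 fell with anisomycin and 3 rose and 1 fell with imiquimod, with Krt15 at -2.46 and -2.54. Markers of several cell types and of keratinocyte stress changed in the same arrays as the phosphatases. Of all genes 22.3% rose and 23.3% fell with anisomycin, and 20.4% rose and 22.4% fell with imiquimod. All 6 stress keratinocyte markers measured rose in both treated groups, and their summed linear signal was 36693 to 38449 in anisomycin, 31133 to 33029 in imiquimod and 1251 to 1748 in vehicle ears. Of 12 neutrophil markers 9 rose with anisomycin and 10 with imiquimod, with sums of 4838 to 6572 in anisomycin, 8227 to 8838 in imiquimod and 466 to 521 in vehicle ears. Between the treatments 3 of the 12 were higher in anisomycin ears, Trem1, Mmp9 and Csf3r, and 5 were lower. Those 5 include S100a8 and S100a9, which averaged 11.23 and 11.82 in imiquimod ears and weigh most in the sums. Of 10 monocyte and macrophage markers 9 and 8 rose in anisomycin and imiquimod ears, with sums of 5802 to 6427, 5907 to 6005, and 2773 to 3251 in vehicle ears. All 9 skeletal muscle markers fell in both, with sums of 2471 to 2772 in anisomycin, 2019 to 3196 in imiquimod and 7659 to 12767 in vehicle ears. In either treated group all 6 adipocyte, 6 of 7 fibroblast and 4 of 6 cartilage markers fell, and of 6 mast cell markers 4 fell with anisomycin and 6 with imiquimod. The remaining fibroblast marker, Pdgfra, rose by 0.68 with anisomycin and was not called with imiquimod. The part of these shifts in the results that follow was not tested, and in whole tissue a change in the number of cells of a type and a change in RNA per cell cannot be told apart.

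Among the nuclear enzymes Dusp5, whose product binds and dephosphorylates ERK, had the largest response to anisomycin of the 10 genes. Its log2 values were 9.44, 9.29 and 9.11 in anisomycin ears, 8.12, 8.01 and 8.13 in imiquimod ears and 6.79, 6.73 and 6.90 in vehicle ears. The groups did not overlap, and they formed a ladder with imiquimod between the others. The log2 fold change was 2.47 (SE 0.09) with anisomycin, a 5.55-fold rise (limma adjusted p = 7.62e-08), and 1.28 (SE 0.09) with imiquimod, a 2.42-fold rise (limma adjusted p = 5.18e-06). Anisomycin ears exceeded imiquimod ears by 1.20 (SE 0.09, limma adjusted p = 6.85e-05).

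Dusp1, the immediate early phosphatase that acts on p38, JNK and ERK, stood high in every anisomycin array, at 12.19, 12.18 and 12.04. It was at 10.82, 10.03 and 10.81 in imiquimod ears and at 10.05, 9.94 and 10.03 in vehicle ears. Anisomycin arrays lay well above both other groups, while 1 of the 3 imiquimod arrays lay inside the vehicle range. With anisomycin the log2 fold change was 2.13 (SE 0.18, limma adjusted p = 1.38e-05), a 4.37-fold rise. With imiquimod it was 0.54 (SE 0.18, limma adjusted p = 0.038), and that call was fragile. It ended without anisomycin replicate 1 or 2, imiquimod replicate 1 or 3 or any vehicle replicate, with limma adjusted p of up to 0.138. It ended also after quantile or cyclic loess normalization, at changes of 0.36 and 0.34, but without imiquimod replicate 2 the change was 0.81 (limma adjusted p = 8.19e-05). The difference between the treatments, 1.59 (SE 0.18, limma adjusted p = 0.00066), kept its call under all 20 alternatives, with values of 1.32 to 1.72.

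Dusp2 and Dusp4, the remaining nuclear enzymes, moved little. Dusp2, which is best known from lymphocytes and other blood cells, was at 5.76, 5.83 and 5.89 in anisomycin ears, 5.69, 5.54 and 5.69 in imiquimod ears and 5.65, 5.63 and 5.68 in vehicle ears. Its change with anisomycin was 0.17 (SE 0.06, limma adjusted p = 0.0404), and with imiquimod -0.01, with an interval of -0.14 to 0.12. All 3 anisomycin arrays were above all vehicle arrays, though by a small margin. The call ended with arrays centred on stable genes, at 0.09, with every row of the table tested, and without any 1 of 7 arrays (anisomycin 2 or 3, imiquimod 1 or 3, or any vehicle array), at limma adjusted p of up to 0.123. Of 7 measured T cell markers, 1 rose and 2 fell in either treated group, with sums of 466 to 509 in anisomycin, 450 to 527 in imiquimod and 511 to 667 in vehicle ears.

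Dusp4 was at 6.16, 5.70 and 5.66 in anisomycin ears, 5.80, 5.60 and 5.69 in imiquimod ears and 5.63, 5.52 and 5.47 in vehicle ears. One anisomycin array stood above the rest, and the other arrays of that group lay within the imiquimod range. The change of 0.30 with anisomycin (SE 0.12) was not called (limma adjusted p = 0.0797). Over the 20 alternatives it ran from 0.14 to 0.39, at limma adjusted p of up to 0.215. It passed under 5 of them, among them the replicate block (limma adjusted p = 0.0263) and omission of anisomycin replicate 3 (0.39, limma adjusted p = 0.0382). With imiquimod the change was 0.16 (SE 0.12), with an interval of -0.12 to 0.44. Both genes were dim, with 36.7% (Dusp2) and 36.4% (Dusp4) of genes having a lower mean, and no detection calls were used here.

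The ERK-selective cytoplasmic enzymes responded to both treatments. Dusp6, a classical readout of ERK activity whose product retains ERK in the cytoplasm, was at 9.23, 9.28 and 9.13 in anisomycin ears, 9.16, 8.53 and 8.98 in imiquimod ears and 7.54, 7.46 and 7.39 in vehicle ears. The treated groups overlapped each other and both lay clear of vehicle. It rose 3.35-fold with anisomycin (log2 1.75, SE 0.14, limma adjusted p = 7.73e-06) and 2.69-fold with imiquimod (log2 1.43, SE 0.14, limma adjusted p = 3.415e-05). The difference between the treatments was 0.32 (interval 0.01 to 0.63, limma adjusted p = 0.141) and was not called, though it passed with array weights (0.40) and without imiquimod replicate 1 (0.46, limma adjusted p = 0.0466).

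Dusp7, the closest relative of Dusp6, was at 11.98, 11.98 and 11.99 in anisomycin ears, 11.81, 11.72 and 11.80 in imiquimod ears and 10.86, 10.51 and 10.78 in vehicle ears. The 3 groups did not overlap, and the anisomycin arrays were almost identical. Its rises were 2.41-fold with anisomycin (log2 1.27, SE 0.08, limma adjusted p = 2.7e-06) and 2.09-fold with imiquimod (log2 1.06, SE 0.08, limma adjusted p = 1.11e-05). Anisomycin exceeded imiquimod by 0.21 (interval 0.02 to 0.39, limma adjusted p = 0.115), which was not called. That difference passed under 5 alternatives, at 0.21 to 0.27, among them omission of vehicle replicate 2, which enters it only through the variances (limma adjusted p = 0.0151).

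The genes of all 3 enzymes that prefer JNK and p38 were higher in anisomycin than in imiquimod ears, where 10.8% of all genes were. So were Dusp1 and Dusp5 of the nuclear class. The ERK-selective genes Dusp6 and Dusp7 differed in the same direction, by 0.32 and 0.21, without a call. Dusp9, an ERK-selective gene outside the 10, was called at 0.71. Whether the classes differ from each other was not tested. Dusp10, whose product favours p38 and JNK over ERK, was the only one of the 10 genes called in opposite directions by the treatments. Its values were 8.28, 7.73 and 7.34 in anisomycin ears, 5.92, 6.01 and 5.85 in imiquimod ears and 6.84, 7.22 and 6.76 in vehicle ears. Each anisomycin array lay above, and each imiquimod array below, every vehicle array. The anisomycin arrays were widely spread (SD 0.47) and the imiquimod arrays close together (SD 0.08).

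Relative to vehicle Dusp10 rose by 0.85 on the log2 scale with anisomycin (SE 0.21, limma adjusted p = 0.00823) and fell by 1.01 with imiquimod (SE 0.21, limma adjusted p = 0.00345), to 0.496 of the vehicle level. Anisomycin exceeded imiquimod by 1.86 (SE 0.21, limma adjusted p = 0.000589), or 3.62-fold, the largest difference between the treatments among the 10 genes. All 3 calls held under all 20 alternatives, with changes of 0.60 to 1.07 with anisomycin and -1.10 to -0.87 with imiquimod. The sums of 3 marker lists were lowest in imiquimod ears, as Dusp10 was. Hair follicle markers summed to 1665 to 2220 in anisomycin, 788 to 1017 in imiquimod and 1277 to 1488 in vehicle ears, and endothelial markers to 840 to 1187, 596 to 670, and 733 to 982 in vehicle ears. Dendritic and Langerhans cell markers summed to 517 to 554 in anisomycin, 340 to 385 in imiquimod and 464 to 565 in vehicle ears. With anisomycin the hair follicle sums lay above the vehicle range, the endothelial sums overlapped it and the dendritic sums lay inside it. Of the 6 endothelial markers 1 rose and 2 fell with anisomycin and 0 rose and 3 fell with imiquimod, and the 6 dendritic and Langerhans cell markers gave 1 and 1, and 0 and 3. In the hair follicle list Sox9 alone rose with anisomycin, by 0.96, while 5 of the 7 members fell, so its sum and its counts point in opposite directions there. With imiquimod 0 rose and 4 fell, and the sum was lower too. Their part in the change of Dusp10 was not tested.

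Dusp16, which encodes a JNK-preferring enzyme that shuttles between nucleus and cytoplasm, was at 9.31, 9.47 and 9.48 in anisomycin ears, 8.56, 8.42 and 8.76 in imiquimod ears and 7.74, 7.49 and 7.77 in vehicle ears. As with Dusp5, the groups formed a ladder without overlap. The rises were 3.37-fold with anisomycin (log2 1.75, SE 0.10, limma adjusted p = 1.65e-06) and 1.88-fold with imiquimod (log2 0.91, SE 0.10, limma adjusted p = 9.695e-05), and the treatments differed by 0.84 (SE 0.10, limma adjusted p = 0.000914).

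Dusp8, a JNK phosphatase gene best known from brain and heart, was at 8.68, 8.70 and 8.79 in anisomycin ears, 7.94, 7.48 and 7.94 in imiquimod ears and 8.03, 7.80 and 8.03 in vehicle ears. It rose 1.71-fold with anisomycin (log2 0.77, SE 0.12, limma adjusted p = 0.000631). With imiquimod the change was -0.17 (interval -0.44 to 0.11) and was not called, and the imiquimod and vehicle arrays overlapped. Anisomycin exceeded imiquimod by 0.94 (SE 0.12, limma adjusted p = 0.00126). The dimmer second probe set of Dusp8 gave changes of 0.45 with anisomycin, -0.21 with imiquimod and 0.66 between the treatments, of which the first and the last were called (limma adjusted p = 0.0104 and 0.00757 over all rows).

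Dusp14, the small atypical enzyme, was at 10.32, 10.12 and 10.04 in anisomycin ears, 9.85, 9.87 and 9.96 in imiquimod ears and 9.18, 8.71 and 9.14 in vehicle ears. It rose 2.22-fold with anisomycin (log2 1.15, SE 0.12, limma adjusted p = 4.88e-05) and 1.85-fold with imiquimod (log2 0.88, SE 0.12, limma adjusted p = 0.000314). The treatments differed by 0.27 (interval -0.01 to 0.54, limma adjusted p = 0.169), a difference that was not called except with array weights and without vehicle replicate 2.

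**Figure D2:**
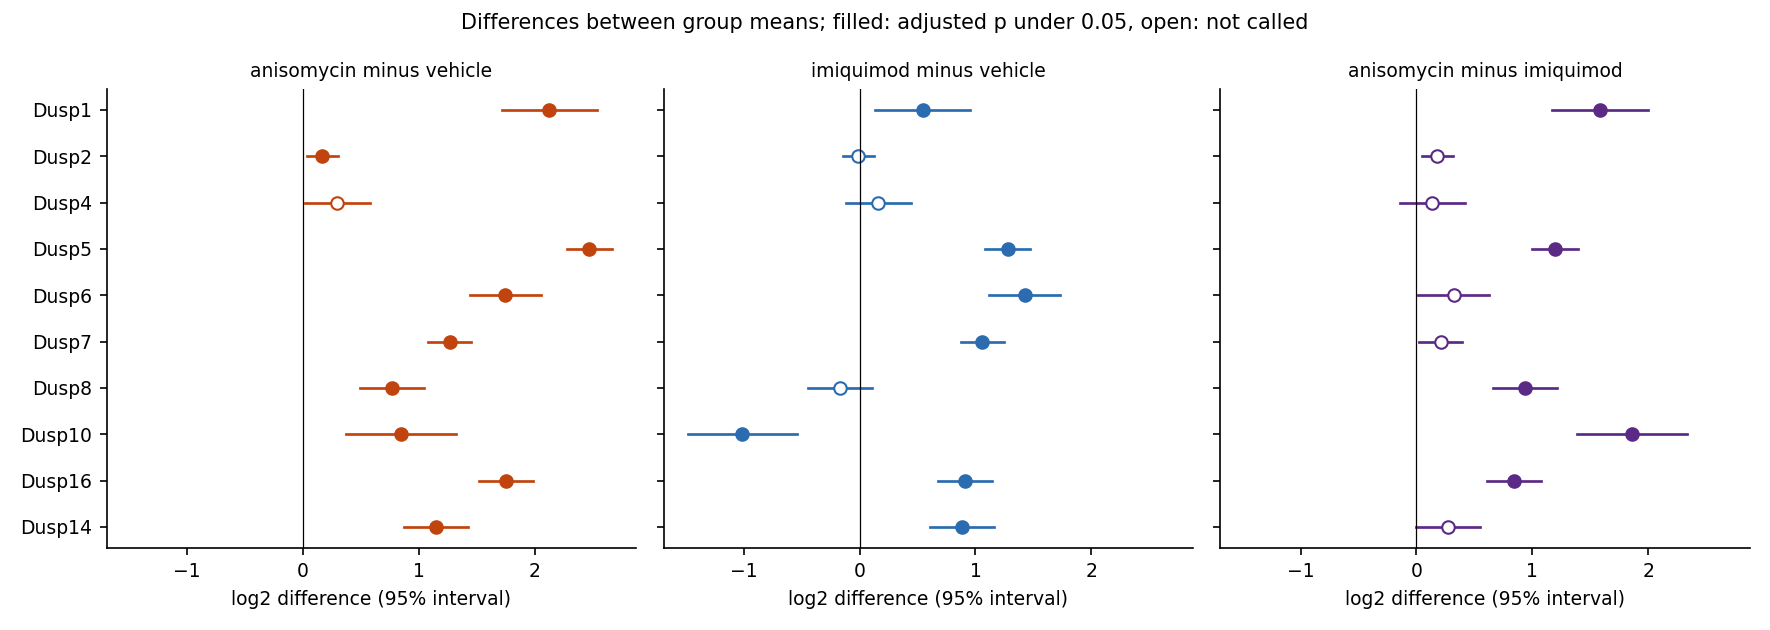
Differences between group means of the 10 phosphatase genes on the log2 scale, with 95% intervals from limma that are not adjusted for the number of genes, for anisomycin minus vehicle, imiquimod minus vehicle and anisomycin minus imiquimod. Filled points have an adjusted p under 0.05. Dusp10 lies right of 0 with anisomycin and left of 0 with imiquimod, and Dusp1, Dusp5, Dusp8, Dusp10 and Dusp16 are filled in the comparison of the treatments.

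By ranges of single arrays, all 10 genes were higher in every anisomycin array than in every vehicle array, where 24.9% of all genes were, 26.4% were lower without overlap and 51.3% did not overlap either way. For imiquimod 6 genes did not overlap with vehicle, 5 of them higher, where 24.4% of all genes were higher without overlap, 27.4% lower and 51.8% either. Between the treatments 8 genes were higher in every anisomycin array, where 21.4% of all genes were, 17.9% were lower and 39.3% did not overlap either way. Dusp4 and Dusp6 were the genes whose treated groups overlapped. Since the 10 genes were chosen with earlier results of these data known, these counts are no test either.

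Part of the spread within the imiquimod group came from 1 array. In imiquimod replicate 2, 8 of the 10 phosphatase genes had the lowest value of the group, all but Dusp10 and Dusp14, where 34.5% of all genes did. The gap to the next lowest imiquimod array was 0.79 for Dusp1, 0.46 for Dusp8 and 0.44 for Dusp6. Only 2, 14 and 18 of the 19938 genes had a larger gap. Immediate early transcription factors showed the same array low. Nr4a1, an orphan nuclear receptor gene, was at 9.37, 7.74 and 8.72 in imiquimod ears, and 0 genes had a larger gap than its 0.98. Atf3, a stress-induced CREB family repressor, was at 8.23, 7.27 and 8.03, and Fos, a subunit of AP-1, at 7.73, 6.53 and 7.19. In all, 15 of 20 genes of the list of immediate early and CRE-binding transcription factors were lowest in replicate 2, and 9 lay over 0.2 below the other arrays, where 1.7% of all genes did. The same cut took 3 of the 10 phosphatase genes. What set this array apart was not tested. Without it Dusp6 was 1.61 above vehicle with imiquimod in place of 1.43, and Dusp8 -0.01 in place of -0.17. Single arrays of the other groups were often lowest too. Vehicle replicate 2 was so for 7 of the 10 phosphatase genes and 11 of the 20 factors, where 38.1% of all genes were. Anisomycin replicate 3 was so for 6 and 13, where 33.3% of all genes were. Gaps were computed for imiquimod replicate 2 only.

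**Figure D3:**
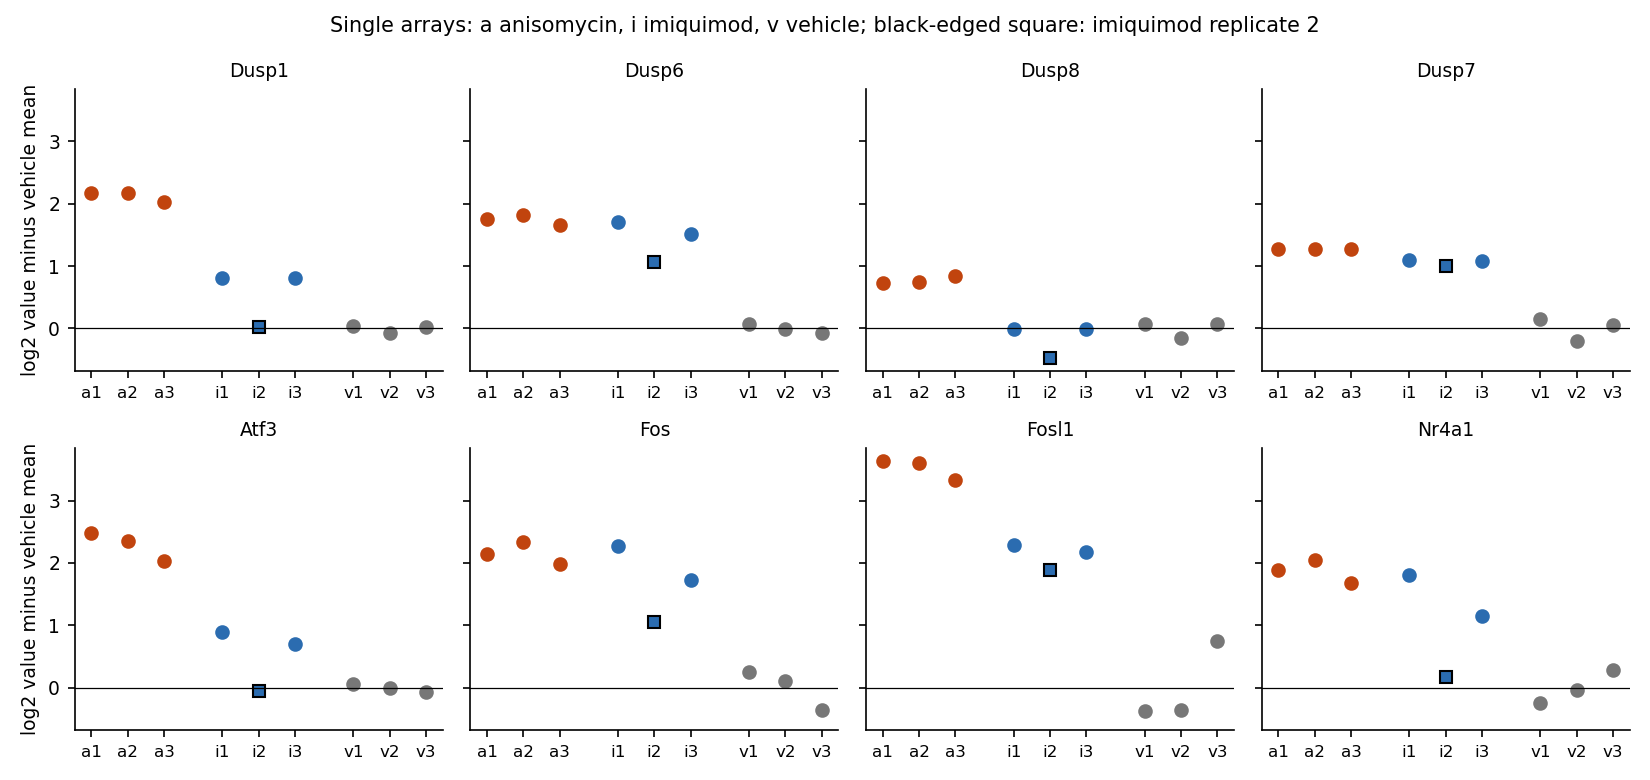
Log2 values of Dusp1, Dusp6, Dusp8 and Dusp7 and of the transcription factors Atf3, Fos, Fosl1 and Nr4a1 in each array, relative to the mean of the 3 vehicle arrays. Letters a, i and v stand for anisomycin, imiquimod and vehicle, and black-edged squares mark imiquimod replicate 2, which lies at the vehicle level for Dusp1 and Atf3 and close to the other imiquimod arrays for Dusp7.

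Promoter sequences of 9 of the 10 genes, all but Dusp4, were found in a RefSeq table on build GRCm38.p6, as windows from 250 bases before to 50 after the start site. Motifs were searched on both strands: the half-site of the cAMP response element (CRE), TGACG, the AP-1 site, TGANTCA, the serum response element or CArG box, and the NF-kB site. Dusp1 and Dusp5, the genes that rose most with anisomycin, and Dusp10, which the treatments moved in opposite directions, are shown by the 250 bases before the start site, 5′ to 3′ on the strand of the gene. Dusp1 lies at chr17:26508473-26508722 on the minus strand, Dusp5 at chr19:53528895-53529144 on the plus strand and Dusp10 at chr1:184034131-184034380 on the plus strand. Capitals mark motif matches.
Dusp1: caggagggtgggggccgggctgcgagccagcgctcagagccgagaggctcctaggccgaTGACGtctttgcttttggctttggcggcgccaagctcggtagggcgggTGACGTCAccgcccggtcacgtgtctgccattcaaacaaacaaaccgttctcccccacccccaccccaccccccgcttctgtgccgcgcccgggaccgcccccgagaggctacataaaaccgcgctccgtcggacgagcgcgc
Dusp5: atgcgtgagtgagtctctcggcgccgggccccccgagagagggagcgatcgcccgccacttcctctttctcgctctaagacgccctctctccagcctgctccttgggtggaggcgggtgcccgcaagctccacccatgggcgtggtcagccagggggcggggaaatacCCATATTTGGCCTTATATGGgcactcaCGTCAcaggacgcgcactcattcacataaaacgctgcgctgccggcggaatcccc
Dusp10: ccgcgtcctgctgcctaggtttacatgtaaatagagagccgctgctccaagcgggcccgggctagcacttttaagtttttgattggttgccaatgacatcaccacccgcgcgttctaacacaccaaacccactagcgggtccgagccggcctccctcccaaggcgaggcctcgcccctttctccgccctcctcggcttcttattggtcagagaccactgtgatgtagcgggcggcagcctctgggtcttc

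In the Dusp1 window the first capital stretch is a CRE half-site at positions -191 to -187 from the start site, and the second, at -143 to -136, holds a half-site on each strand and so the full palindrome. In Dusp5 a pair of adjoining CArG boxes spans positions -82 to -63 and is followed by a CRE half-site. The Dusp10 window holds no match to the 4 motifs. Among the other genes, Dusp8 had 2 full palindromes, and Dusp16 and Dusp2 had 1 half-site each. No match to any of the motifs was found for Dusp6, Dusp7 and Dusp14, and none to the AP-1 or NF-kB site in any of the 9. Over 32851 RefSeq windows of this length, 20.8% held a CRE half-site, 7.81% an AP-1 site, 1.63% a CArG box and 8.46% an NF-kB site. These are matches of letters, not measured binding sites. Half-site matches occurred in Dusp5 and Dusp16, which rose with both treatments, and in Dusp1, whose imiquimod call ended under 13 of 20 alternatives. They occurred also in Dusp8, which was called only with anisomycin, and in Dusp2, whose small change was not stable.

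**Figure D4:**
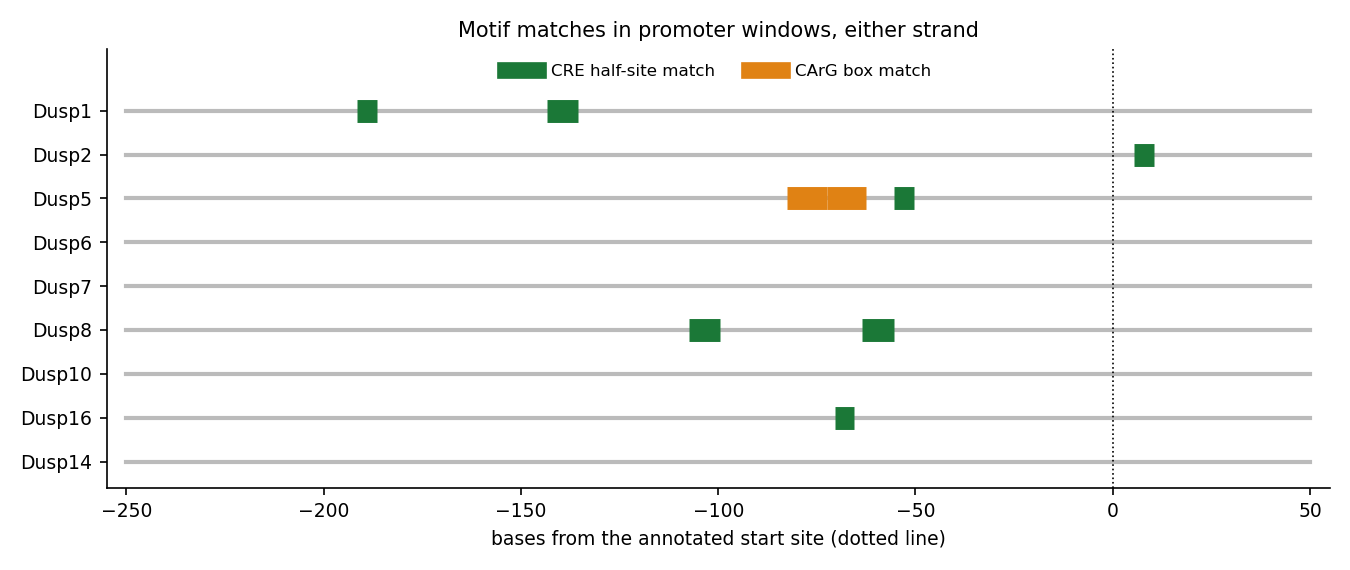
Positions of motif matches on either strand in the promoter windows of 9 phosphatase genes, in bases from the annotated start site, with 1 line per gene. Green blocks are CRE half-sites and orange blocks CArG boxes, which appear only in Dusp5. AP-1 and NF-kB sites were searched and had no match.

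Genes with the most similar pattern were taken by the root mean square difference from a phosphatase gene over the 9 arrays, after the vehicle mean of each gene was subtracted, for the 7 genes whose group means spanned at least 1 log2 unit. The order describes these arrays and carries no test. Nearest to Dusp1 was Atf3 (0.13), followed by Ptafr, the receptor for platelet-activating factor (0.18), and Tnfaip3, the NF-kB inhibitor A20 (0.20). Nearest to Dusp5 were the ephrin receptor gene Epha2 (0.11), Cemip (0.14) and the cytokine gene Clcf1 (0.17). Dusp16 was closest to the AP-1 gene Junb (0.15), the oxidase gene Duox1 (0.15) and the protease gene Prss8 (0.16).

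For Dusp6 the nearest genes were B4galnt1 (0.16), the atypical MAP kinase gene Mapk6 (0.16) and Htr1b (0.17). Dusp7 went closest with the chaperonin subunit gene Cct6a (0.08), Hspa4 (0.08) and Sec23b (0.08). Dusp14 had the closest neighbours, the actin regulators Capza1 (0.07) and Cap1 (0.07) and the ubiquitin-conjugating enzyme gene Ube2n (0.08). Dusp10 had the most distant ones: Sox9 (0.21), at 0.96 with anisomycin and -0.72 with imiquimod, Cdc42ep3 (0.24), at 0.82 and -0.70, and Ttc9 (0.24), at 0.83 and -0.77.

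The other dual-specificity phosphatases changed in both directions. They and the 10 genes were chosen with earlier results of these data known, so the contrast between the lists is no test. Of 23 measured, 5 rose and 10 fell with anisomycin, where 22.3% of all genes rose and 23.3% fell. With imiquimod 1 rose and 10 fell, where 20.4% of all genes rose and 22.4% fell. The medians of the 23 were -0.16 and -0.15. Dusp9, the third ERK-selective cytoplasmic enzyme, behaved most like the 10 genes. It was at 7.62, 7.38 and 7.19 in anisomycin ears, 6.77, 6.69 and 6.62 in imiquimod ears and 6.15, 6.12 and 6.10 in vehicle ears. It rose by 1.27 with anisomycin (SE 0.10) and by 0.57 with imiquimod (SE 0.10), and its groups did not overlap. Unlike Dusp6 and Dusp7 it was called between the treatments, with anisomycin ears higher by 0.71 (SE 0.10, limma adjusted p = 0.00157). Dusp3, a small enzyme that acts on ERK and JNK, rose with anisomycin by 0.53, as did Dusp11, an RNA phosphatase gene, by 0.33. The cofilin phosphatase gene Ssh1 rose by 0.22 with anisomycin and fell by 0.23 with imiquimod, calls that ended with arrays centred on stable genes and on medians in turn. Ssh2 passed with anisomycin at 0.19, a call that 15 of 20 alternatives ended.

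The largest falls in this set were those of Epm2a, which encodes the glycogen phosphatase laforin, with changes of -1.12 in anisomycin and -1.03 in imiquimod ears. Cdc14b changed by -0.87 and -0.46, Dusp15 by -0.60 and -0.66 and Dusp28 by -0.53 and -0.26. Dusp12 changed by -0.29 and -0.25, Dusp26 by -0.29 in both and Styxl1 by -0.23 and -0.15. Dusp22, a JNK pathway regulator, was lower only in the anisomycin comparison (-0.78), as were Styx (-0.47), a catalytically inactive relative that binds ERK, and Ssh3 (-0.27). Cdc14a (-0.27) and Dusp27 (-0.26) passed with imiquimod. The calls of Dusp12, Dusp26, Styxl1 and Cdc14a in imiquimod ears, of Dusp12 and Dusp26 in anisomycin ears and of Dusp27 each ended on leaving out at least 1 array.

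**Figure D5:**
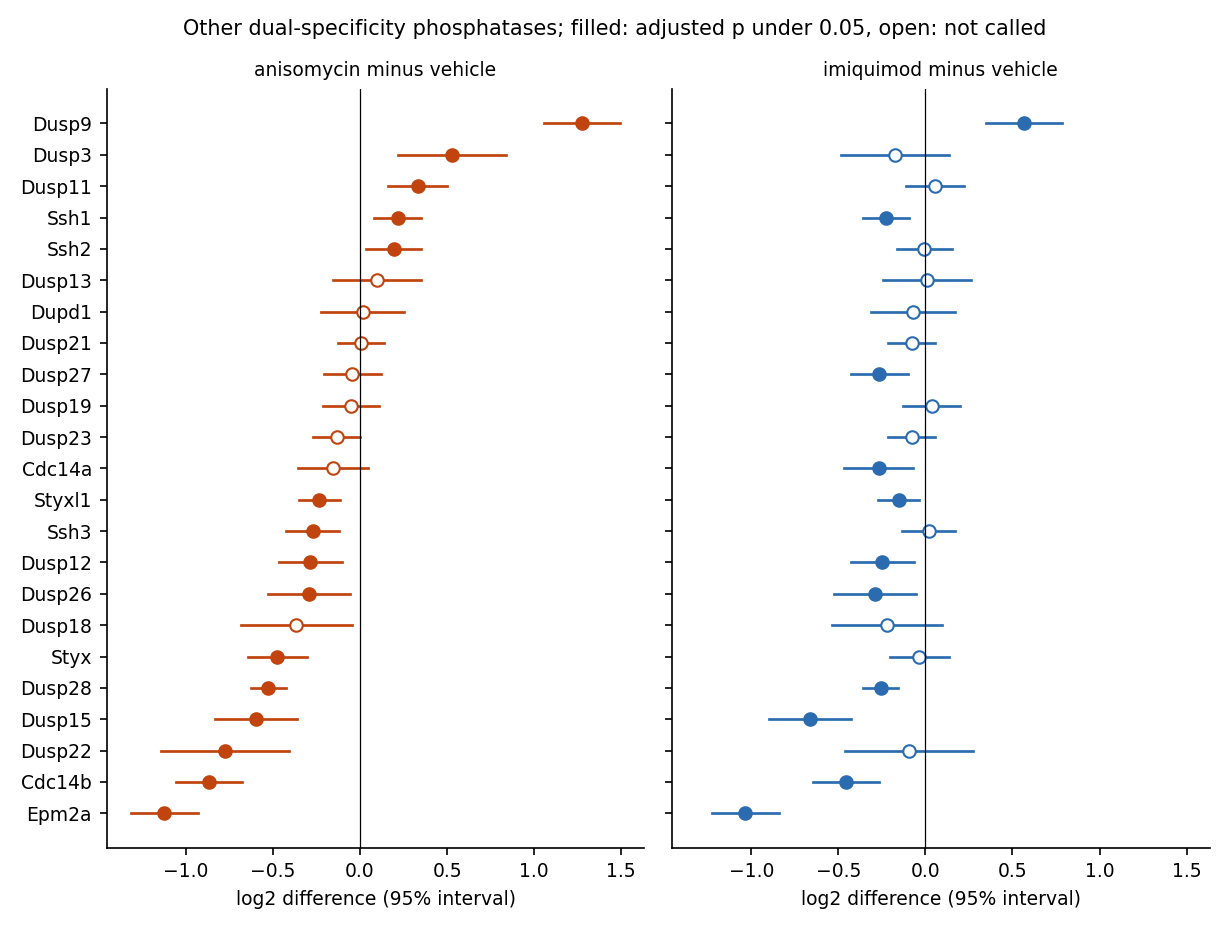
Log2 differences of 23 other dual-specificity phosphatase genes, anisomycin minus vehicle and imiquimod minus vehicle, with 95% intervals from limma that are not adjusted for the number of genes, ordered by the change with anisomycin. Filled points have an adjusted p under 0.05. Dusp9 lies at the top of both panels and Epm2a at the bottom.

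The kinases that these enzymes switch off changed in both directions. Of 11 measured MAP kinase genes 3 rose and 3 fell with anisomycin and 4 rose and 2 fell with imiquimod. The shares of all genes that rose and fell were 22.3% and 23.3% with anisomycin and 20.4% and 22.4% with imiquimod. Mapk6, which encodes ERK3, rose by 1.75 (SE 0.06) and 1.49 (SE 0.06). Mapk12, the p38 gamma gene that is strong in muscle, changed by -0.75 and -0.89. Mapk13, the p38 delta gene, rose by 0.82 with imiquimod, and its change with anisomycin, 0.29, was not called. The JNK1 gene Mapk8 was higher in anisomycin than in imiquimod ears by 0.68 (SE 0.09, limma adjusted p = 0.00121). Between the treatments 2 of the 11 genes were higher and 2 lower in anisomycin ears, where 10.8% of all genes were higher and 9.59% lower. The lower ones were Mapk13 at -0.54 (limma adjusted p = 0.0183) and the p38 alpha gene Mapk14 at -0.42 (limma adjusted p = 0.0211). The call of Mapk13 ended without anisomycin replicate 1 or 2 or imiquimod replicate 2 or 3, at limma adjusted p of up to 0.067, and that of Mapk14 without anisomycin replicate 1 or imiquimod replicate 2 or 3, at up to 0.0792.

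Upstream, 3 of 6 measured MAP2 kinase genes rose and 2 fell with anisomycin, and 4 rose and 2 fell with imiquimod. For each list of this paragraph the shares of all genes that rose and fell were 22.3% and 23.3% with anisomycin. With imiquimod they were 20.4% and 22.4%. Map2k1, the ERK activator MEK1, rose by 0.81 and 1.00, Map2k3, a p38 activator, by 0.69 and 0.62, and Map2k4, an activator of JNK, by 0.74 and 0.79, while Map2k6, the second p38 activator, changed by -1.04 and -0.61. The 21 MAP3 kinase genes gave 7 rises and 7 falls with either treatment, with Map3k6 at 0.77 and 1.11, Map3k8 at 0.66 and 0.40, Map3k1 at -1.12 and -0.77 and Map3k4 at -0.84 and -0.24. Among 8 kinases activated by MAP kinases 3 rose and 2 fell with anisomycin and 3 rose and 1 fell with imiquimod. Mapkapk2, the main p38 effector kinase, rose by 0.81 and 0.60 and Rps6ka3 by 0.42 and 0.33, the second of which was not called without imiquimod replicate 2. Of 9 scaffold genes 1 rose and 1 fell, and 1 rose and 2 fell, with Mapk8ip1 at -0.63 and -0.53.

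Phosphatases of other families that act on MAP kinases gave 3 rises and 2 falls of 9 with anisomycin and 4 rises and 2 falls with imiquimod. Over all genes the shares were 22.3% and 23.3% with anisomycin and 20.4% and 22.4% with imiquimod. The catalytic subunits of protein phosphatase 2A, Ppp2ca and Ppp2cb, rose by 0.80 and 0.82 with anisomycin and by 0.52 and 0.28 with imiquimod, although the imiquimod call of Ppp2cb ended after quantile or cyclic loess normalization. Ppm1b changed by -0.45 and -0.33, and Ppm1d rose by 0.43 with anisomycin.

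Other feedback genes and targets of ERK were split. Of 15, 6 rose and 6 fell with anisomycin and 4 rose and 7 fell with imiquimod. Over all genes 22.3% rose and 23.3% fell with anisomycin, and 20.4% rose and 22.4% fell with imiquimod. Phlda1 rose by 3.01 with anisomycin and 1.21 with imiquimod, Ier3 by 2.49 and 1.70, and Etv4, an ETS factor gene downstream of ERK, by 0.88 and 1.42. Errfi1, an inhibitor of the EGF receptor, rose by 1.03 with anisomycin, and at 0.23 with imiquimod its call ended without imiquimod replicate 1 or 3, and after quantile or cyclic loess normalization the change was 0.07. Among the genes that fell with both treatments, Spry1 changed by -1.02 with anisomycin and -0.56 with imiquimod, Spred2 by -0.79 and -0.52 and Il17rd by -0.45 and -0.61. Transcription factors of the immediate early and CRE-binding list gave 14 rises and 1 fall among 20 with anisomycin, and 12 rises and 0 falls with imiquimod. These counts stand beside the same shares of all genes. Fosl1 rose by 3.52 and 2.12, and Fos by 2.15 and 1.68. Nr4a1 rose by 1.87 with anisomycin, and its imiquimod call, at 1.05, ended without imiquimod replicate 1 or 3 or vehicle replicate 1 or 2. Atf3 rose by 2.29 with anisomycin and was at 0.51 and not called with imiquimod, the same order as for Dusp1.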

How the data were processed

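Expression was measured on 9 arrays of whole ear skin, 3 per group. The authors deposited 1 table of log2 values made with RMA (version not given), per the submitters' processing notes. RMA corrects background, normalizes by quantiles and summarises probes. The log2 scale was judged from the range of 2.39 to 13.97. No build is named for the table. Of 35556 rows, 21789 carried 1 gene symbol in the platform annotation, 1621 several and 12146 none, and the brightest probe set per symbol left 19938 genes, with no filter on dim genes.

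The linear model had 1 coefficient for each group and used the 9 arrays together (limma 3.58.1, R 4.3.3). Contrasts were two-sided and adjusted by Benjamini-Hochberg at 0.05. SE is limma's standard error and intervals are 95% intervals. The number of arrays limits the precision, and a rank test of 3 against 3 cannot go below 0.1. The fit was tested on simulated data. The labels do not say that samples of a group were separate animals, so p-values measure only the spread between samples. The members and lists were chosen with earlier results of these data known. Named genes were all 10 members, the called genes among other dual-specificity phosphatases, up to 4 called genes of each further list by size of change, and the 3 nearest genes in pattern. Spry1, Spred2 and Il17rd were added to show falls in the ERK feedback list. Alternatives were other variance priors, filters, normalizations, probe set summaries, array weights, a replicate block and leaving out arrays. Deviations of same-numbered arrays correlated between -0.20 and 0.20, and those of other pairs between -0.24 and 0.25. No pairing by number was seen, though 3 arrays per group are too few to exclude one.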

Additional observations from a re-analysis of the deposited data

How the results depend on the processing

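Of the values for the 10 phosphatase genes in 3 comparisons under 20 alternatives, 555 kept direction and call, 22 lost the call, 17 gained one and 6 changed sign. The sign changes were all of uncalled values. Dusp2 in imiquimod against vehicle became 0.0412 after repeated quantile normalization, 0.0514 after centring on medians and 0.0844 after cyclic loess, and leaving out single arrays gave -0.0374 (without imiquimod replicate 1) to 0.0385 (without imiquimod replicate 2). Dusp4 in anisomycin against imiquimod ran from -0.0234 (without anisomycin replicate 1) to 0.2287 (without anisomycin replicate 3). Counts of phosphatase genes ran from 8 to 10 higher with anisomycin, with 0 lower under every alternative run, and from 5 to 6 higher and 1 lower with imiquimod. Between the treatments 5 to 9 were higher. Leaving out 1 array at a time gave 5 to 7, and array weights gave 9 phosphatase genes, with 4536 genes higher and 4021 lower of all tested in place of 2147 and 1912. For that comparison, leaving out each array gave 1320 to 2562 genes higher and 1061 to 2214 lower, where fewer arrays were fitted. With the replicate block 10 phosphatase genes were higher with anisomycin, since Dusp4 passed (limma adjusted p = 0.0263), and no other call of the 10 genes changed. Same-numbered arrays deviated together no more than others (correlations of -0.20 to 0.20, against -0.24 to 0.25). Of called genes, 49% were higher with anisomycin and 47.7% with imiquimod, which became 61.5% and 58.1% after centring on medians and 37.1% and 36.4% after centring on stable genes. The median of all genes stayed within 0.1 of 0. Signal over background was not used here, which limits Dusp2 and Dusp4.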
